A study of Mus musculus with 8 samples.

Results

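Control motor neuron cultures were compared between day 7 and day 9 of differentiation, on 4 of the 8 arrays of the series: replicates 1 and 2 of day 7 against replicates 1 and 2 of day 9. The cultures were grown from male mouse embryonic stem cells of a line titled Hb9GFP, in which the promoter of the motor neuron gene Hb9 drives green fluorescent protein. Retinoic acid and Sonic hedgehog (RA/Shh) were given from day 2 to day 5. The embryoid bodies, which are floating clumps of differentiating cells, were split into single cells on day 5. GDNF, a survival factor for motor neurons, was present from then until sampling. The other 4 arrays held Litchi knockout cultures of the same line, days and treatment, 2 per day, and entered the fit and 1 comparison. The control cells carried no knockout, and every culture on the 8 arrays had received RA/Shh and GDNF. Arrays were assigned to groups by their titles, so all 4 arrays that the titles name as control belong to the comparison. The labels name neither a sort for green cells nor separate cultures for replicates 1 and 2, so a p-value here reflects only how far these arrays spread, and that spread may be technical.

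In this protocol, retinoic acid gives cells of the embryoid body a spinal character and Sonic hedgehog a ventral one. Progenitors that express Olig2 stop dividing, pass through a phase of proneural gene expression and become motor neurons that carry Lhx3, Isl1 and Isl2 and make acetylcholine. Floor plate cells, which themselves make Sonic hedgehog, interneurons, glial precursors and some mesodermal cells arise beside them, and an array of a whole culture reads the RNA of them all.

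Expression is given as a log2 level, the log2 processed signal of a probe minus the 75th percentile of the processed signals on its array, so that a level of 0 is as bright as that percentile. Replicate 1 of each group was the brighter array: the 75th percentile was 1644 and 649 intensity units for replicates 1 and 2 on day 7 and 1088 and 708 on day 9. Between 55.9% and 67.9% of the spots on these 4 arrays were well above background. The median gap between the replicates of a gene was 0.24 log2 units on day 7 and 0.21 on day 9, and it was over 1 in 769 and 969 of the 23714 genes tested. Markers of the labelled cell type were present. Tubb3, the neuronal tubulin, had log2 levels of 6.01 and 6.29 on day 7 and 5.77 and 5.25 on day 9, and Slc18a3, the vesicular acetylcholine transporter, of 4.31 and 4.41 on day 7 and 3.62 and 3.13 on day 9. Cells other than neurons were also present, since Mki67, a marker of dividing cells, had levels of 4.72 and 4.95 on day 7 and 4.60 and 4.74 on day 9 and Sox2, a neural progenitor factor, of 2.03 and 2.28 on day 7 and 2.14 and 2.51 on day 9.

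A change is given as the day 9 mean minus the day 7 mean in log2 units, ± its standard error from limma, with 2 arrays per day, and every adjusted p was computed with the Benjamini-Hochberg method across all 23714 tested genes. At an adjusted p under 0.05, 1959 genes (8.26%) were called in the control cultures. Of these, 1070 (4.51% of genes tested) rose and 889 (3.75%) fell. All 1959 moved the same way in replicate 1 as in replicate 2, which a call from 2 arrays per day nearly requires. At least 4-fold changes were found for 286 of the genes that rose and 94 of those that fell. The median change of all genes tested was -0.12. Of the calls, 54.6% were rises. With the median signal, background-corrected by normexp, in place of the processed signal, 773 genes were called and 67.9% of them were rises. That setting changed the signal used as well as the correction.

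**Figure D1:**
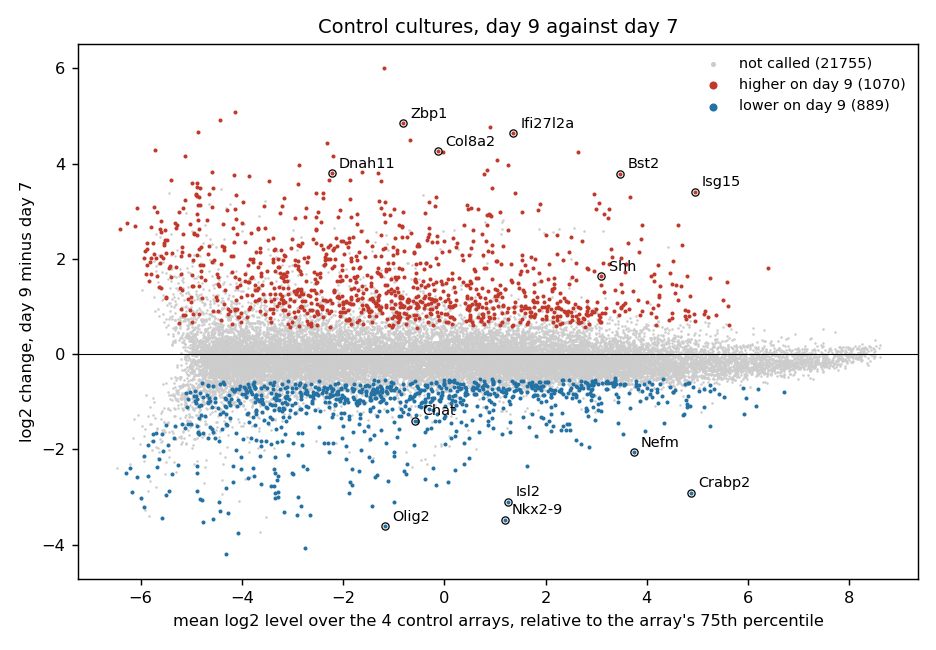
Log2 change from day 7 to day 9 in control cultures (vertical axis) against the mean log2 level over the 4 control arrays (horizontal axis, relative to each array's 75th percentile), 1 point per gene. Red points are the 1070 genes that rose, blue points the 889 that fell and grey points the genes not called; genes below background on 1 of the days are drawn at their measured values, and the labels mark genes described in the text.

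The number of calls depended on single arrays. It was 916 and 121 when replicates 1 and 2 of control day 7 were left out in turn, 1460 and 303 for those of control day 9, 1292 with either knockout array of day 7 left out and 1048 with either of day 9. In all 8 of these leave-one-out fits, 84 of the rising and 27 of the falling genes were called. The replicates of day 9 were also unequal in how far they moved: of the 1070 genes that rose, 770 were higher in replicate 2 than in replicate 1, and of the 889 that fell, 602 were lower in replicate 2. For this reason many of the genes below are given with the number of leave-one-out fits, of 8, in which they were called. Groups of lists are given with their counts under each omission. Omission of a knockout array left the control change as it was and altered only its estimated error. Either knockout array of a day gave the same number of calls, so these fits are not separate checks. A count under 8 can come mostly or wholly from fits that omit a knockout array. Such a count does not tell how often the call held without a control array.

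**Figure D2:**
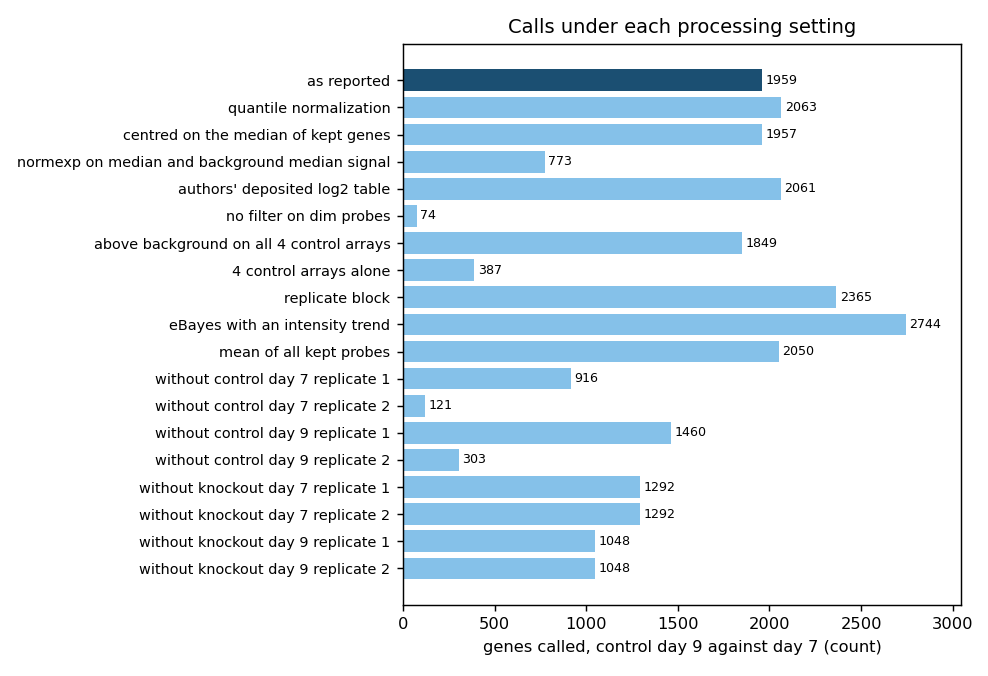
Number of genes called in control cultures, day 9 against day 7 (horizontal axis, adjusted p under 0.05), under the main setting (dark bar, 1959) and each alternative setting (light bars). The longest bar, 2744, is the fit with an intensity trend and the shortest, 74, the fit with no filter on dim probes.

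Genes were grouped in 49 lists by role, which together held 1197 of the tested genes, and 149 of these rose and 88 fell (19.8% called). The lists were chosen with earlier results of these data known, so their shares of calls may partly reflect that choice. Among all tested genes with a symbol, 6.03% rose and 3.66% fell, and counts near those shares describe the genes named, not a movement of their list. The plot of list medians sets the lists side by side. A list's median includes members that were below background on 1 of the days. Some lists are also given with the number of members higher, or lower, on both day 9 arrays than on either day 7 array. The share of all tested genes that separated in this way was not computed, so these counts describe the members alone. The lists with the largest median rise were the interferon-stimulated genes (3.05), antigen presentation (2.17), motile cilia (1.38) and the floor plate (0.90). The 4 lists with the largest median fall were the motor neuron identity factors (-1.21), cholinergic transmission (-0.98), germline genes (-0.62) and spinal progenitor factors (-0.60). Over members above background on all 4 control arrays the motor neuron median was -0.95 and the cholinergic one -0.98, so the order of these lists turned.

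**Figure D3:**
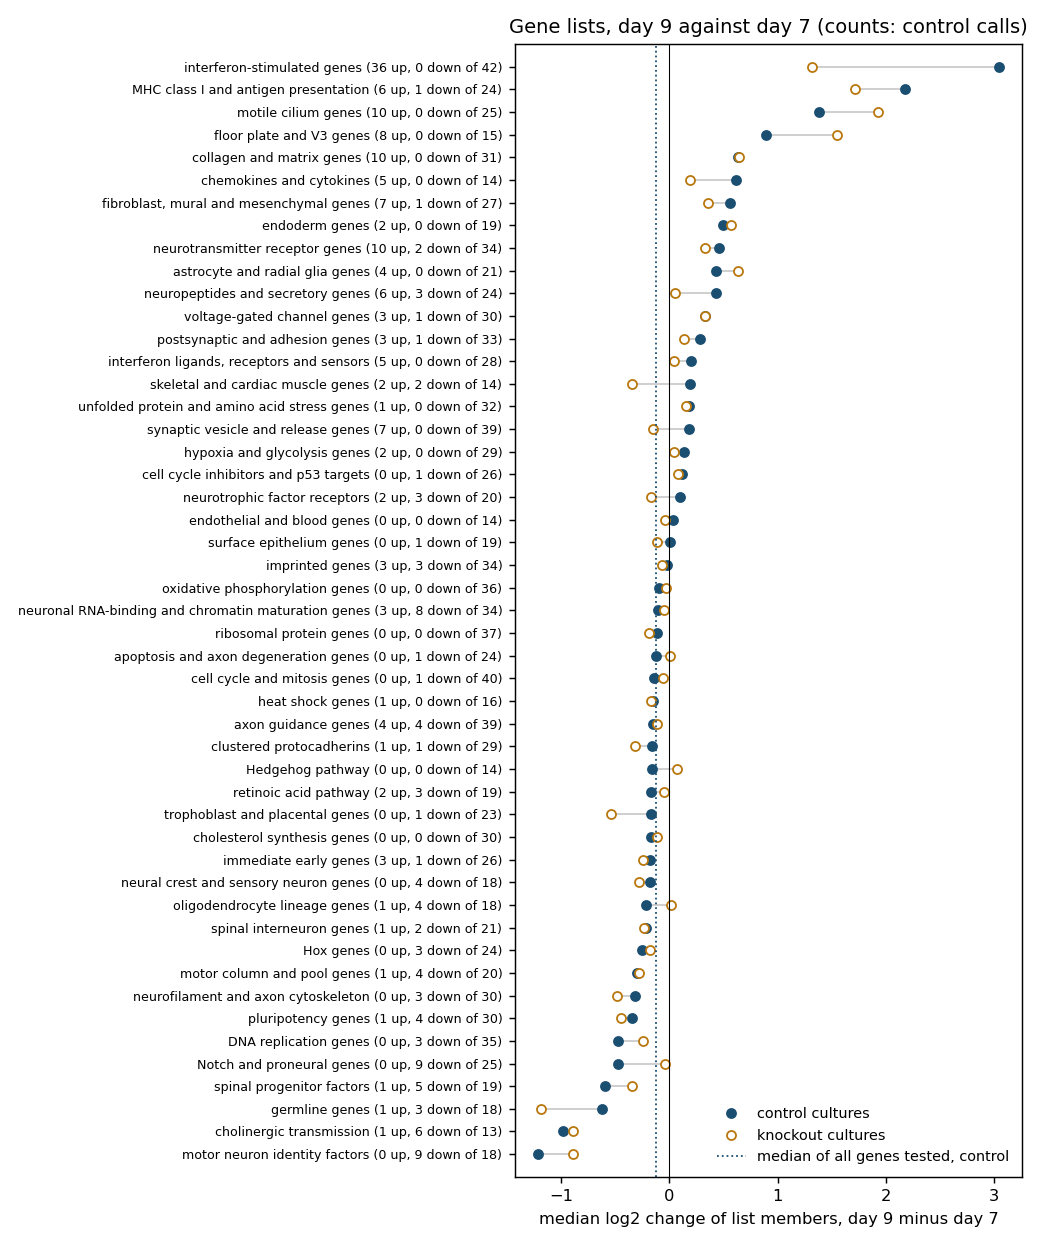
Median log2 change of the tested members of each of 49 gene lists from day 7 to day 9 (horizontal axis) in control (filled) and knockout cultures (open), with the median of all genes tested in control cultures as a dotted line (-0.12). The counts beside each list are its members called in control cultures; the interferon-stimulated genes lie farthest to the right, at 3.05.

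In the motor neuron identity list, which also holds genes of neurons in general, many members fell. Of the 18 members of that list, all of them tested, 9 fell and 0 rose, and 14 were lower on both day 9 arrays than on either day 7 array. The genes that fell were the LIM factors Isl2, Lhx3 and Lhx4, the Onecut factor Onecut2, the Ebf factors Ebf1 and Ebf2, Neurod1, Myt1 and the neurofilament gene Nefl. In these whole cultures, fewer cells of a type and less RNA per cell cannot be told apart. Lhx3, which with Isl1 specifies motor neurons, had log2 levels of 3.002 and 3.20 on day 7 and 1.60 and 1.43 on day 9. Its arrays were close within each day and the days did not overlap, and it fell by 1.59 ± 0.15 (adjusted p = 0.00646, called in 7 of 8 fits). Isl2, a LIM factor of postmitotic motor neurons, had levels of 2.83 and 2.78 on day 7 and 0.63 and -1.23 on day 9. Both day 9 arrays were below both day 7 arrays, with replicate 2 the lower, and its change was -3.10 ± 0.53 (adjusted p = 0.0221). Isl1, at 1.37 and 1.15 on day 7 and 0.46 and -1.11 on day 9, was likewise lower on both day 9 arrays but was not called, with a change of -1.59 ± 0.47 (adjusted p = 0.0873).

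Ebf1 changed by -1.33 ± 0.17 (adjusted p = 0.0116) and Myt1, a zinc finger factor of new neurons, by -1.33 ± 0.17 (adjusted p = 0.0118). Neurod1, a proneural factor that drives neuronal differentiation, changed by -2.42 ± 0.28 (adjusted p = 0.00843), with 1 of the 2 day 9 arrays below background. Nefl, the light neurofilament chain and an abundant axonal protein, changed by -1.10 ± 0.20 (adjusted p = 0.0282).

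Of 13 genes of acetylcholine transmission tested, 6 fell and 1 rose. Their summed level, in multiples of each array's 75th percentile, was 75.44 and 64.35 on day 7 and 64.7 and 72.61 on day 9. The days overlapped in this sum, to which the brightest members contribute most, so the list's total did not separate them. On both day 9 arrays, 9 of the 13 genes were lower and 2 higher than on either day 7 array, at a median change of -0.98. Chat, the enzyme that makes acetylcholine, had log2 levels of 0.25 and -0.01 on day 7 and -0.97 and -1.58 on day 9. Day 9 lay below day 7 on all arrays, for a change of -1.40 ± 0.23 (adjusted p = 0.0218, called in 5 of 8 fits). The fall of the vesicular transporter Slc18a3, -0.98 ± 0.22 (adjusted p = 0.0469), was smaller and was called in 1 of 8 fits. Slc10a4, an orphan transporter of cholinergic vesicles, changed by -1.86 ± 0.25 (adjusted p = 0.0125). Chrnb4, a nicotinic receptor subunit, stood at 0.58 and 0.30 on day 7 and -2.03 and -2.005 on day 9. Its day 9 arrays differed by less than 0.1 from each other and lay far below day 7, a change of -2.46 ± 0.15 (adjusted p = 0.0035) that was called in 8 of 8 fits. Chrna3, its usual partner subunit, changed by -1.32 ± 0.13 (adjusted p = 0.00653). Ache, which breaks acetylcholine down, was the member that rose, from -2.57 and -2.40 to -1.45 and -1.57, by 0.97 ± 0.14 (adjusted p = 0.0162).

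Column and pool genes, which mark groups of motor neurons by the muscles they serve, gave 1 rise and 4 falls among 20 tested. Foxp1, the factor of limb and other lateral columns, rose by 0.96 ± 0.17 (adjusted p = 0.0245). Nr2f1, a nuclear receptor, changed by -0.92 ± 0.15 (adjusted p = 0.0199), Esrrg, a nuclear receptor of gamma motor neurons, by -1.09 ± 0.19 (adjusted p = 0.024), Gfra1, the GDNF receptor, by -0.84 ± 0.15 (adjusted p = 0.0274) and the ephrin receptor Epha4 by -0.78 ± 0.16 (adjusted p = 0.0374). Of the 24 Hox genes tested, which set position along the body axis, 3 fell and 0 rose: Hoxb3 by -0.81 ± 0.17 (adjusted p = 0.0395), Hoxd4 by -0.86 ± 0.18 (adjusted p = 0.0403) and Hoxa9 by -0.80 ± 0.18 (adjusted p = 0.0458). Across these 4 lists the 22 falls numbered 7 and 1 when replicates 1 and 2 of control day 7 were left out in turn, and 20 and 5 for those of control day 9. The number was 13 with either knockout array of day 7 left out and 12 with either of day 9. Their 2 rises, of Ache and Foxp1, numbered 1 and 0 when replicates 1 and 2 of control day 7 were left out in turn, and 0 and 0 for those of control day 9. The number was 2 with either knockout array of day 7 left out and 1 with either of day 9. With the 4 control arrays alone the falls numbered 6 and the rises 0, and with normexp the falls numbered 10 and the rises 2.

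Spinal progenitor factors included the largest falls among genes with a symbol that were above background on all 4 control arrays. Olig2, which defines motor neuron and oligodendrocyte progenitors, had log2 levels of 0.50 and 0.75 on day 7 and -3.21 and -2.77 on day 9. The days were separated by more than 3 log2 units on all arrays, a change of -3.62 ± 0.37 or 12.3-fold (adjusted p = 0.00666, called in 7 of 8 fits). Olig1, its neighbour on the chromosome, went from 0.39 and 0.74 to -2.90 and -2.20, a change of -3.11 ± 0.36 (adjusted p = 0.00882). Nkx2-9, a ventral homeodomain factor induced by Sonic hedgehog, had levels of 2.81 and 3.05 on day 7 and -0.17 and -0.92 on day 9. It was high on both day 7 arrays and changed by -3.47 ± 0.25 (adjusted p = 0.00485), a call made in 8 of 8 fits.

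Pax6, a factor of dorsal and intermediate progenitors, changed by -1.77 ± 0.33 (adjusted p = 0.0274) with 1 of 2 day 9 arrays below background. Dbx1, which marks intermediate progenitors, was not well above background on either day 9 array and was at least 2.5-fold lower there (adjusted p = 0.0149). Each "at least" fold is a bound: the dimmer day enters at the faintest signal still well above background on its arrays, or at the probe's measured signal where that is brighter. Prom1, a membrane protein of stem and ependymal cells, was the member that rose, by 0.78 ± 0.17 (adjusted p = 0.0412), so that this list of 19 tested genes held 5 falls and 1 rise. The summed level of the list was 274.1 and 327.5 on day 7 and 283.7 and 303.1 on day 9, so the days overlapped. Sox2 did not pass the test, at 0.17 ± 0.17 (adjusted p = 0.568), and its sign turned without control day 9 replicate 2.

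Notch and proneural genes, which time the birth of neurons, gave 9 falls and 0 rises among 25 tested. The falls took in ligands of Notch (Dll1 and Dll3), its targets and modulators (Hes5, Nrarp and Mfng) and proneural factors, among them Neurog2, Neurod2 and Nhlh2. Neurog2, the proneural factor of motor neuron progenitors, had log2 levels of 0.09 and 0.35 on day 7 and -2.37 and -2.51 on day 9. The replicates of each day lay within 0.3 of each other, and the change was -2.66 ± 0.30 (adjusted p = 0.0081). Nhlh2, expressed in newborn neurons, went from 1.22 and 1.63 to -1.13 and -0.88, a change of -2.42 ± 0.22 (adjusted p = 0.00559) called in 8 of 8 fits. Neurod2 had 1 of 2 day 9 arrays below background and changed by -2.91 ± 0.49 (adjusted p = 0.0219). Mfng, a Fringe enzyme that modifies Notch, changed by -1.41 ± 0.22 (adjusted p = 0.0171), Dll3 by -0.98 ± 0.16 (adjusted p = 0.0204) and the Notch feedback inhibitor Nrarp by -1.41 ± 0.24 (adjusted p = 0.0218).

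Floor plate genes rose, 8 of 15 tested with 0 falls, and 12 of the 15 were higher on both day 9 arrays than on either day 7 array. Shh itself had log2 levels of 2.23 and 2.34 on day 7 and 3.85 and 3.98 on day 9. The replicates agreed within 0.2 on each day, and the change was 1.63 ± 0.13 or 3.1-fold (adjusted p = 0.00508, called in 8 of 8 fits). Foxa2, the factor that specifies floor plate, rose by 0.90 ± 0.13 (adjusted p = 0.0163) and Foxa1 by 1.98 ± 0.26 (adjusted p = 0.0119). Sulf1, which edits heparan sulfate and shapes hedgehog spread, went from 3.57 and 3.51 to 5.40 and 5.61, a rise of 1.97 ± 0.15 (adjusted p = 0.00485, called in 8 of 8 fits). Ferd3l, a bHLH factor of the floor plate, rose by 1.79 ± 0.19 (adjusted p = 0.00727). Ntn1 and Spon1, secreted guidance proteins of the floor plate, also rose. The summed level of the tested members, in multiples of each array's 75th percentile, was 146 and 146 on day 7 and 264 and 308 on day 9.

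Hedgehog receptors, effectors and targets did not pass the test in either direction (0 of 14 tested by limma, though the floor plate ligand rose). Gli1, a direct target of the pathway, had levels of 1.47 and 1.03 on day 7 and 1.07 and 0.06 on day 9 and a change of -0.69 ± 0.41 (adjusted p = 0.325), and the hedgehog co-receptors Cdon and Boc had changes of 0.79 ± 0.24 (adjusted p = 0.0929) and 0.37 ± 0.15 (adjusted p = 0.184). Over all genes, 6417 had an unadjusted p under 0.05.

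Retinoic acid genes moved both ways, with 2 rises and 3 falls among 19 tested. The falls included Crabp1 and Crabp2, proteins that bind retinoic acid inside the cell. Crabp2 had log2 levels of 6.03 and 6.62 on day 7 and 3.49 and 3.34 on day 9, high on both day 7 arrays, and changed by -2.91 ± 0.31 or 7.52-fold (adjusted p = 0.00727, called in 7 of 8 fits). Crabp1 changed by -1.44 ± 0.22 (adjusted p = 0.0165). The rises were enzymes: Aldh1a3, which makes retinoic acid, went from -2.61 and -3.46 to -0.44 and -0.72, by 2.46 ± 0.28 (adjusted p = 0.00838, called in 8 of 8 fits), and Dhrs3, which turns retinal back to retinol, by 1.78 ± 0.28 (adjusted p = 0.0186). Rarb, a receptor gene that retinoic acid induces, had a change of -0.79 ± 0.23 (adjusted p = 0.0823). The summed level of the 19 genes was 215 and 261 on day 7 and 110 and 109 on day 9.

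Interneuron genes gave 1 rise and 2 falls among 21 tested. Gad1, which makes the inhibitory transmitter GABA, rose by 1.82 ± 0.29 (adjusted p = 0.0183), whereas Prdm8 changed by -2.69 ± 0.40 (adjusted p = 0.0162) and Evx1, a marker of V0 interneurons, by -1.01 ± 0.20 (adjusted p = 0.0332). Slc32a1, the vesicular GABA transporter, had a change of 0.57 ± 0.14 (adjusted p = 0.0572). Across the 6 lists of progenitors, Notch, floor plate, hedgehog, retinoic acid and interneuron genes, the 12 rises numbered 9 and 3 when replicates 1 and 2 of control day 7 were left out in turn, and 11 and 5 for those of control day 9. The number was 11 with either knockout array of day 7 left out and 11 with either of day 9. The 19 falls numbered 11 and 2 when replicates 1 and 2 of control day 7 were left out in turn, and 19 and 11 for those of control day 9. The number was 15 with either knockout array of day 7 left out and 15 with either of day 9.

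**Figure D4:**
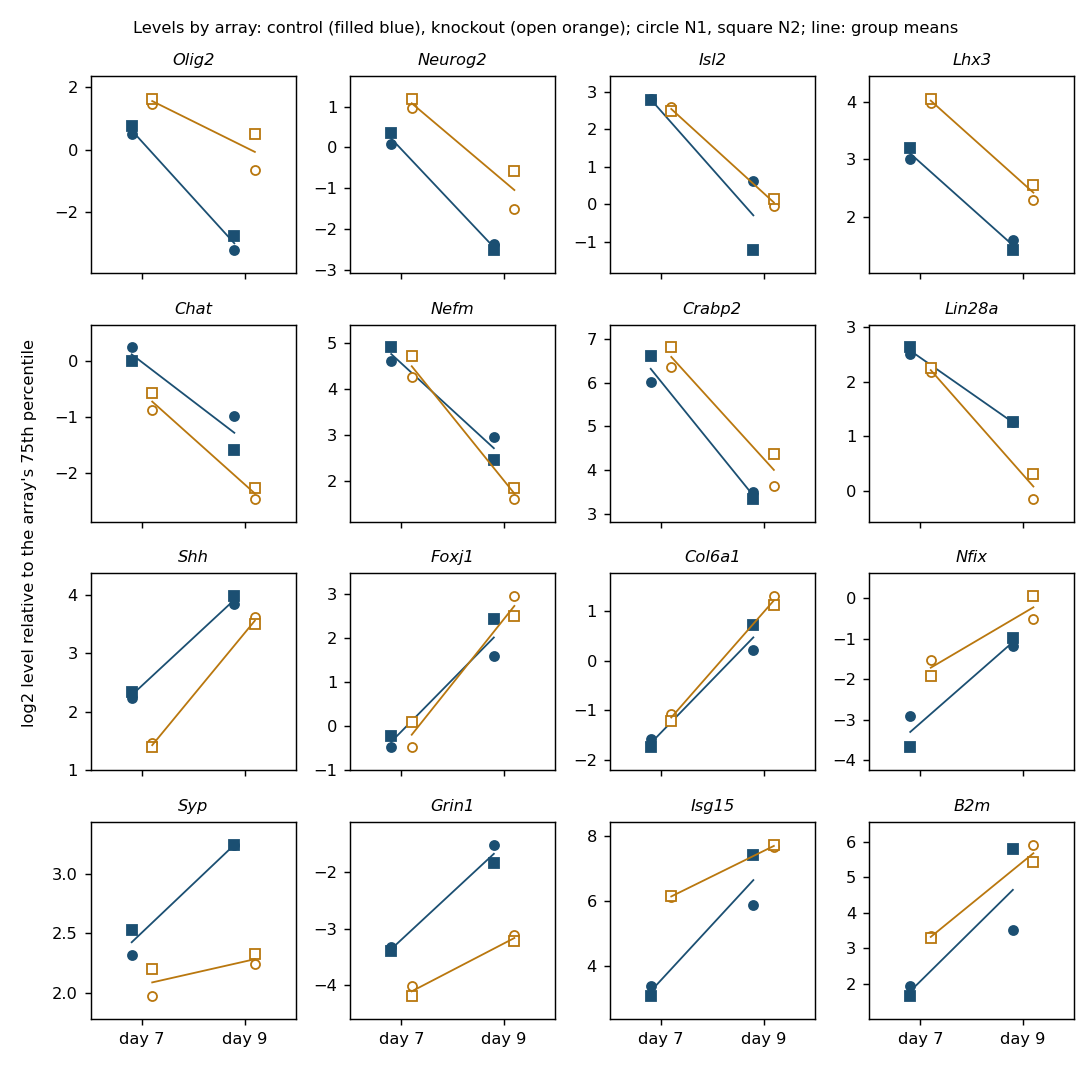
Log2 levels of 16 genes on each of the 8 arrays, relative to the array's 75th percentile (vertical axis, own scale per gene), on day 7 and day 9 (horizontal axis); filled blue is control and open orange knockout, circles are replicate 1, squares replicate 2 and lines join group means. In control cultures Olig2 dropped from 0.50 and 0.75 to -3.21 and -2.77 and Shh climbed from 2.23 and 2.34 to 3.85 and 3.98, while Isg15 and B2m rose farther in replicate 2.

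Genes of the axon cytoskeleton gave 3 falls and 0 rises among 30 tested, with a median of -0.31. Nefm, the middle neurofilament chain, had log2 levels of 4.62 and 4.91 on day 7 and 2.96 and 2.45 on day 9. It was lower on both day 9 arrays, with a change of -2.06 ± 0.24 (adjusted p = 0.0089, called in 7 of 8 fits). Prph, the peripheral neuron filament protein, changed by -1.09 ± 0.25 (adjusted p = 0.0475). Stmn2 and Dcx, growth cone and microtubule proteins of young neurons, did not pass, at -0.44 ± 0.14 (adjusted p = 0.0963) and -0.41 ± 0.12 (adjusted p = 0.094). Map2, the dendritic microtubule protein, had levels of 2.69 and 2.86 on day 7 and 2.69 and 2.89 on day 9, and its change of 0.01 ± 0.15 (adjusted p = 0.967) turned sign with normexp, with the mean of its probes, and without control day 7 replicate 1 or day 9 replicate 2.

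Synaptic vesicle genes gave 7 rises and 0 falls among 39 tested, with a median of 0.18. The other 32 did not pass the test. On both day 9 arrays, 16 of the 39 were higher and 3 lower than on either day 7 array. The summed level of the list was 236.9 and 249.1 on day 7 and 279.3 and 247.8 on day 9, so the days overlapped. The rises included Syn2, Syp, Sv2a, Vamp1, Rph3a and Sncb. Syn2, a synapsin that tethers vesicles, had log2 levels of 0.96 and 0.72 on day 7 and 2.74 and 2.57 on day 9. The days were well apart, a rise of 1.82 ± 0.17 or 3.52-fold (adjusted p = 0.00566, called in 8 of 8 fits). Syp, the vesicle protein synaptophysin, rose by 0.82 ± 0.15 (adjusted p = 0.0254) and Vamp1, a vesicle SNARE, by 1.15 ± 0.18 (adjusted p = 0.0173). Sncb, a synuclein, was not well above background on either day 7 array and was at least 2.57-fold higher on day 9 (adjusted p = 0.00559). Rph3a, a Rab effector of vesicles, rose by 2.06 ± 0.33 (adjusted p = 0.0188) with 1 of 2 day 7 arrays below background.

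Neurotransmitter receptor subunits gave 10 rises and 2 falls among 34 tested. On both day 9 arrays, 23 of the 34 were higher and 4 lower than on either day 7 array. Among glutamate receptors, Gria1, Grin1, Grin3a, Grm7 and Grm8 rose. Grin1, the obligatory NMDA receptor subunit, had log2 levels of -3.33 and -3.39 on day 7 and -1.52 and -1.85 on day 9, a rise of 1.68 ± 0.16 (adjusted p = 0.00581) called in 8 of 8 fits. Grin3a, a further NMDA subunit, was not well above background on day 7 and was at least 5.71-fold higher on day 9 (adjusted p = 0.00392, called in 8 of 8 fits). Grm7, a presynaptic glutamate receptor, went from -3.62 and -4.05 to -1.03 and -1.09, by 2.77 ± 0.29 (adjusted p = 0.00693). Among receptors for GABA and glycine, Gabra2, Gabra3, Gabra5, Gabrb1 and Glra2 rose and Gabrg1 and Glra1 fell. Gabrb1 was at least 5.14-fold higher on day 9 (adjusted p = 0.0132), Glra2 changed by 1.82 ± 0.31 (adjusted p = 0.0225) and Gabrg1 by -1.08 ± 0.15 (adjusted p = 0.0131).

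Postsynaptic and adhesion genes gave 3 rises and 1 fall among 33, shares near the 6.03% and 3.66% of all genes with a symbol. Their median was 0.28, and on both day 9 arrays 17 were higher and 9 lower than on either day 7 array. Shank3, a postsynaptic scaffold, rose by 0.80 ± 0.15 (adjusted p = 0.0277), the adhesion protein Nlgn1 by 1.33 ± 0.26 (adjusted p = 0.0298), and Ncam2 was at least 2.98-fold higher (adjusted p = 0.0162), while the adhesion gene Cadm1 changed by -0.90 ± 0.20 (adjusted p = 0.0427). Voltage-gated channel genes gave 3 rises and 1 fall among 30, also not far from those shares. Their median was 0.33, and on both day 9 arrays 18 were higher and 4 lower than on either day 7 array. The potassium channel gene Kcnc2 rose by 2.54 ± 0.47 (adjusted p = 0.0279), with 1 of 2 day 7 arrays below background, the sodium channel gene Scn1a by 1.55 ± 0.32 (adjusted p = 0.0362) and the channel-associated Kcnip4 by 1.58 ± 0.35 (adjusted p = 0.0448). Kcnh2, another potassium channel gene, changed by -1.31 ± 0.18 (adjusted p = 0.0132).

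Neuropeptide and secretory genes gave 6 rises and 3 falls among 24 tested. Peptide precursors went both ways. Tac1, the precursor of substance P, had log2 levels of -2.63 and -2.44 on day 7 and -0.08 and 0.86 on day 9 and rose by 2.92 ± 0.44 (adjusted p = 0.0167), and Penk, the enkephalin precursor, rose by 2.07 ± 0.31 (adjusted p = 0.0164). Sst, the somatostatin precursor, changed by -1.50 ± 0.21 (adjusted p = 0.014) and Cartpt by -1.35 ± 0.19 (adjusted p = 0.0147). Npy also fell. The prohormone convertase Pcsk1 and its inhibitor Pcsk1n, which act on such precursors, rose by 1.53 ± 0.24 (adjusted p = 0.0186) and 1.15 ± 0.13 (adjusted p = 0.00795).

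Axon guidance genes were divided, with 4 rises and 4 falls among 39. Sema3d, a secreted semaphorin, went from -2.37 and -2.24 to -3.97 and -3.99, a change of -1.67 ± 0.16 (adjusted p = 0.00581) called in 8 of 8 fits. The netrin receptor Unc5a changed by -1.13 ± 0.16 (adjusted p = 0.0156) and the Slit receptor Robo2 by -0.93 ± 0.17 (adjusted p = 0.0283). The semaphorin receptors Nrp1, by 0.67 ± 0.13 (adjusted p = 0.0289), Nrp2 and Plxnc1 rose, as did Sema3e with 1.94 ± 0.39 (adjusted p = 0.0356) and 1 of 2 day 7 arrays below background. Clustered protocadherins, adhesion proteins that give neurons single-cell identity, gave 1 rise and 1 fall among 29, no more than the shares of all genes with a symbol: Pcdhga9 by 0.82 ± 0.12 (adjusted p = 0.0163) and Pcdhb11 by -0.75 ± 0.17 (adjusted p = 0.0474). Members of these clusters are related in sequence, and whether a probe reads more than 1 of them was not tested.

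Neurotrophic factor receptors gave 2 rises and 3 falls among 20. Gfra1, through which the added GDNF acts, fell (above), and Gfra2, the neurturin receptor, rose by 1.45 ± 0.22 (adjusted p = 0.0165). Ngfr, the low-affinity neurotrophin receptor, changed by -0.997 ± 0.20 (adjusted p = 0.0336) and Il6st, the shared signalling subunit of CNTF-type receptors, changed by 0.63 ± 0.14 (adjusted p = 0.0468). Immediate early genes, which activity and growth factors switch on, gave 3 rises and 1 fall among 26: Egr1 changed by -1.88 ± 0.25 (adjusted p = 0.0122), Ier3 by 1.59 ± 0.26 (adjusted p = 0.0203), Nr4a2 by 1.74 ± 0.37 (adjusted p = 0.04) and Ccn1 by 1.09 ± 0.25 (adjusted p = 0.0487). Over the 10 lists of neuronal genes, the 39 rises numbered 16 and 5 when replicates 1 and 2 of control day 7 were left out in turn, and 23 and 6 for those of control day 9. The number was 29 with either knockout array of day 7 left out and 27 with either of day 9. The 19 falls numbered 11 and 1 when replicates 1 and 2 of control day 7 were left out in turn, and 14 and 4 for those of control day 9. The number was 13 with either knockout array of day 7 left out and 9 with either of day 9.

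Interferon-stimulated genes gave the most calls of the 49 lists. These genes are switched on when type I interferon activates the factor ISGF3, which binds the interferon-stimulated response element (ISRE) in their promoters. Of 42 tested, 36 rose and 0 fell, against 6.03% and 3.66% of all tested genes with a symbol. This list, like the others, was chosen with earlier results known, so the contrast is a description and not a test. On both day 9 arrays, 41 of the 42 were higher and 1 lower than on either day 7 array. Before their values, the promoter sequences of 6 of them are shown, because an ISRE core, GAAANNGAAA, can be read in the letters. Each line gives 60 bases from the RefSeq promoter table (build GRCm38.p6), 5′ to 3′ along the gene's strand, with every match in capitals; a match on the other strand reads TTTCNNTTTC.
Bst2, chr8:71537562-71537621 (- strand): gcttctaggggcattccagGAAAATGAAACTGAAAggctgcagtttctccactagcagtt
Isg15, chr4:156200850-156200909 (- strand): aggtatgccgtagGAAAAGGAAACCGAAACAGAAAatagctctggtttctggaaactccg
Gbp3, chr3:142559980-142560039 (+ strand): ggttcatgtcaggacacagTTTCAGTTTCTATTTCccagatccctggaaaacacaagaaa
Rsad2, chr12:26456538-26456597 (- strand): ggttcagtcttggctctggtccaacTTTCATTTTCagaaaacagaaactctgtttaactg
Gbp7, chr3:142530258-142530317 (+ strand): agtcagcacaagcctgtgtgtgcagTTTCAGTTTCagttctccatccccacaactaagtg
Ifit1, chr19:34640779-34640838 (+ strand): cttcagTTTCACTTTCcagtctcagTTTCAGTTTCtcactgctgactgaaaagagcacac
The match in the middle of each line ends between 29 (Gbp3) and 114 (Bst2) bases before the start of the gene, and other matches overlap it in some lines, as in Isg15. In the window of 250 bases before each start, on either strand, this motif was present in 978 of 32851 promoters (2.98%), in 361 of the 11666 tested genes with a promoter in the table (3.09%), in 51 of 683 genes that rose (7.47%) and in 14 of 436 that fell (3.21%). Among the tested interferon-stimulated genes it was present in 15 of 31 (48.4%), among those of them that rose in 13 of 27 (48.1%), and among the other genes that rose in 38 of 656 (5.79%). A match describes letters in a window, not a binding site.

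The effector genes had levels that differed between days and also between the day 9 arrays. Bst2, or tetherin, which holds budding virus at the cell surface, had log2 levels of 1.62 and 1.54 on day 7 and 4.72 and 6.02 on day 9. Replicate 2 of day 9 was the highest array, replicate 1 of day 9 the next, and the days did not overlap, with a rise of 3.79 ± 0.40 or 13.8-fold (adjusted p = 0.00693, called in 7 of 8 fits). Rsad2, or viperin, an enzyme that blocks viral RNA synthesis, stood at -0.43 and -1.03 on day 7 and 2.25 and 4.23 on day 9 and rose by 3.97 ± 0.60 (adjusted p = 0.0165). Ifit1, which binds viral RNA ends, stood at -1.63 and -2.67 on day 7 and 0.98 and 3.23 on day 9 and rose by 4.26 ± 0.70 (adjusted p = 0.0209). Its neighbours Ifit3 and Ifit3b, near-identical copies that a probe may not separate, rose by 4.77 ± 0.94 (adjusted p = 0.0332) and 4.49 ± 0.93 (adjusted p = 0.0374), and their day 9 arrays differed by more than 3 log2 units: Ifit3 was at 1.69 and 4.88 and Ifit3b at -0.02 and 3.17. Both were called in 2 of 8 fits.

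Isg15, Gbp3 and Gbp7 were chosen for their promoters after their values were seen. Isg15, a ubiquitin-like modifier, had log2 levels of 3.39 and 3.09 on day 7 and 5.87 and 7.42 on day 9 and a rise of 3.41 ± 0.45 (adjusted p = 0.0122), and the GTPases Gbp3 and Gbp7 rose by 3.78 ± 0.57 (adjusted p = 0.0165) and 3.20 ± 0.48 (adjusted p = 0.0167). Ifi27l2a had levels of -0.32 and -1.59 on day 7 and 3.10 and 4.27 on day 9, a rise of 4.64 ± 0.51 (adjusted p = 0.00734) called in 8 of 8 fits. Oasl2, a relative of the enzymes that sense double-stranded RNA, went from 0.66 and 0.35 to 3.83 and 5.69, by 4.25 ± 0.53 (adjusted p = 0.0102). Ifi44, with 1 of 2 day 7 arrays below background, was at 0.31 and 3.32 on day 9 and rose by 6.004 ± 0.94 (adjusted p = 0.0179). Zbp1, a sensor of unusual nucleic acids that can trigger cell death, stood at -3.40 and -3.08 on day 7 and 0.43 and 2.79 on day 9 and rose by 4.86 ± 0.73 (adjusted p = 0.0165), Xaf1, a factor that promotes apoptosis, by 4.09 ± 0.52 (adjusted p = 0.0111) and Rtp4 by 3.31 ± 0.39 (adjusted p = 0.00858).

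The regulators of the response rose as well. Irf7, the factor that amplifies interferon gene expression, stood at -3.86 and -4.68 on day 7 and -1.14 and 0.91 on day 9, a rise of 4.16 ± 0.63 (adjusted p = 0.0165). Irf9, the DNA-binding subunit of ISGF3, stood at 2.26 and 1.92 on day 7 and 3.66 and 4.01 on day 9, a rise of 1.75 ± 0.18 (adjusted p = 0.00707). Usp18, which removes Isg15 and damps the interferon receptor, rose by 3.04 ± 0.33 (adjusted p = 0.00727), and Socs1, another feedback inhibitor, by 1.15 ± 0.26 (adjusted p = 0.0433).

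Interferon ligands, receptors and sensors gave 5 rises and 0 falls among 28 tested. Tlr3, the endosomal sensor of double-stranded RNA, was not well above background on day 7 and was at least 5.24-fold higher on day 9 (adjusted p = 0.016). The Ifna genes encode interferon alpha and are near-identical copies, so their probes may share target RNA and their values are uncertain. Ifna4 was at least 6.63-fold higher (adjusted p = 0.0165), Ifna5 went from -3.19 and -3.43 to -2.40 and -2.25, by 0.99 ± 0.20 (adjusted p = 0.0357), and Ifna2 from -4.54 and -4.12 to -3.57 and -3.18, by 0.95 ± 0.22 (adjusted p = 0.0484). Chemokine and cytokine genes gave 5 rises and 0 falls among 14. Cxcl10, a chemokine that interferon induces, had levels of -0.24 and -1.005 on day 7 and 1.70 and 1.79 on day 9 and rose by 2.37 ± 0.32 (adjusted p = 0.0135), Csf1, the macrophage growth factor, rose by 1.87 ± 0.23 (adjusted p = 0.00955). Cx3cl1, Cxcl12 and the signalling gene Nfkb1 rose by 1.12 ± 0.18 (adjusted p = 0.0199), 1.21 ± 0.23 (adjusted p = 0.0285) and 0.71 ± 0.14 (adjusted p = 0.0358).

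Antigen presentation by MHC class I, which shows peptides from inside the cell on its surface, gave 6 rises and 1 fall among 24 tested, although 22 members were higher on both day 9 arrays than on either day 7 array and the median change was 2.17. Tap1, the peptide transporter, had log2 levels of -2.96 and -3.62 on day 7 and -1.60 and -0.60 on day 9 and rose by 2.19 ± 0.36 (adjusted p = 0.0213). Tapbp and Tapbpl, which load peptides, rose by 2.16 ± 0.40 (adjusted p = 0.0282) and 1.12 ± 0.23 (adjusted p = 0.0366), and Erap1, which trims them, by 1.69 ± 0.32 (adjusted p = 0.0282). Nlrc5, the transactivator of these genes, rose by 3.64 ± 0.73 (adjusted p = 0.0351) with 1 of 2 day 7 arrays below background. B2m, the light chain of class I molecules, chosen for the plot of levels after its values were seen, stood at 1.93 and 1.65 on day 7 and 3.51 and 5.79 on day 9, a rise of 2.86 ± 0.66 (adjusted p = 0.0469) called in 2 of 8 fits. Cd74, a class II chaperone and not part of the class I pathway, changed by -2.42 ± 0.55 (adjusted p = 0.0468).

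The day 9 replicates stood apart in these lists. Replicate 2 was above replicate 1 in 41 of 42 interferon-stimulated genes, with a median gap of 1.47, and in 23 of 24 antigen presentation genes, with a median gap of 1.82. On day 7 replicate 2 was above replicate 1 in 2 of the 42 and 13 of the 24. The summed level of the interferon-stimulated genes, in multiples of the 75th percentile, was 83.4 and 58.5 on day 7 and 322 and 789 on day 9, and that of the antigen presentation genes was 110 and 116 on day 7 and 157 and 418 on day 9. Markers of endothelial and blood cells, among which are cells rich in such transcripts, had summed levels of 6.29 and 8.19 on day 7 and 7.24 and 9.4 on day 9, and 0 of the 14 tested passed limma's test. In 12 of these 14 (median gap 0.43) and in 17 of 19 endoderm genes (median gap 0.65) replicate 2 was likewise the higher array on day 9. Their part in the result was not tested.

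**Figure D5:**
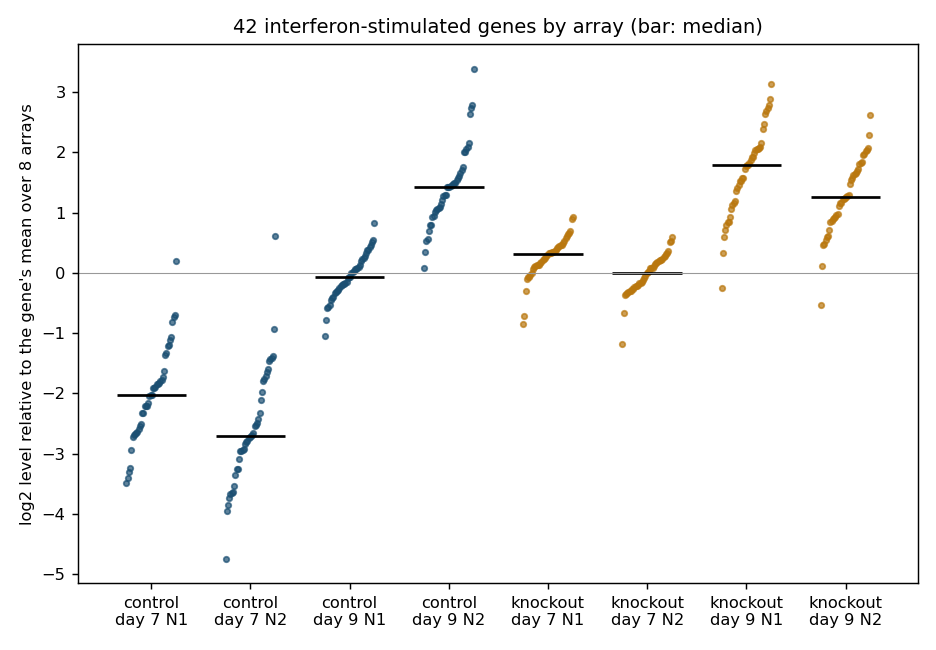
Log2 level of each of 42 interferon-stimulated genes on each of the 8 arrays (horizontal axis), relative to the gene's mean over all 8 (vertical axis); each point is a gene and the bar is the median of the array. In control cultures the medians were -2.03 and -2.71 on day 7 and -0.06 and 1.44 on day 9, with replicate 2 the higher on day 9, and in knockout cultures they were 0.31 and 0.00 on day 7 and 1.78 and 1.26 on day 9.

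Omission of single arrays changed these counts. Over the 4 lists the 52 rises numbered 31 and 1 when replicates 1 and 2 of control day 7 were left out in turn, and 65 and 26 for those of control day 9. The number was 40 with either knockout array of day 7 left out and 32 with either of day 9. For the interferon-stimulated list alone, the 36 rises numbered 26 and 1 without replicates 1 and 2 of control day 7 and 40 and 23 without replicates 1 and 2 of control day 9. The 6 rises in antigen presentation numbered 1 and 0 without replicates 1 and 2 of control day 7 and 20 and 2 without those of control day 9. With the 4 control arrays alone, 5 of the 42 interferon-stimulated genes were called higher.

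Motile cilium genes rose, 10 of 25 tested with 0 falls and a median of 1.38. Motile cilia beat on ependymal cells of the spinal canal and on the floor plate. Foxj1, the master factor of motile cilia, had log2 levels of -0.49 and -0.23 on day 7 and 1.60 and 2.42 on day 9. The days did not overlap and replicate 2 was the higher on day 9, for a rise of 2.37 ± 0.33 (adjusted p = 0.014, called in 5 of 8 fits). Dnah11, a dynein heavy chain that powers the beat, stood at -3.77 and -4.49 on day 7 and -0.75 and 0.09 on day 9 and rose by 3.80 ± 0.40 or 13.9-fold (adjusted p = 0.00707). Cfap52 rose by 3.26 ± 0.36 (adjusted p = 0.00795), Cfap126 by 3.04 ± 0.50 (adjusted p = 0.0209), Dnali1 by 3.27 ± 0.42 (adjusted p = 0.011) and Ccdc39 by 1.73 ± 0.25 (adjusted p = 0.016), all parts of the axoneme, the last 2 with 1 of 2 day 7 arrays below background. The summed level of the list was 7.26 and 11.3 on day 7 and 16.7 and 30.6 on day 9, and replicate 2 of day 9 was above replicate 1 in 24 of the 25 genes.

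Astrocyte and radial glia genes gave 4 rises and 0 falls among 21 tested. Nfix, a factor of the switch to glia and late neurons, went from -2.92 and -3.68 to -1.17 and -0.99, by 2.22 ± 0.31 (adjusted p = 0.014). Aldh1l1, a folate enzyme used to mark astrocytes, stood at -0.57 and -0.60 on day 7 and 1.000 and 2.28 on day 9 and rose by 2.22 ± 0.44 (adjusted p = 0.0324, called in 3 of 8 fits). Clu rose by 1.03 ± 0.20 (adjusted p = 0.0327), and the matrix protein Tnc was at least 1.81-fold higher on day 9 (adjusted p = 0.0131). Slc1a3, the glial glutamate transporter, did not pass, at 1.25 ± 0.31 (adjusted p = 0.0587). Oligodendrocyte lineage genes gave 1 rise and 4 falls among 18: Olig2 and Olig1, given above with the progenitors, Sox8 with -1.12 ± 0.17 (adjusted p = 0.0162), Mobp with -0.88 ± 0.15 (adjusted p = 0.0241) and 1 of 2 day 9 arrays below background, and Cspg4, the NG2 proteoglycan, with 0.91 ± 0.19 (adjusted p = 0.0375) and 1 of 2 day 7 arrays below background. Over the glial and cilium lists the 15 rises numbered 5 and 0 when replicates 1 and 2 of control day 7 were left out in turn, and 15 and 5 for those of control day 9. The number was 10 with either knockout array of day 7 left out and 14 with either of day 9. The 4 falls numbered 2 and 0 when replicates 1 and 2 of control day 7 were left out in turn, and 4 and 2 for those of control day 9. The number was 4 with either knockout array of day 7 left out and 4 with either of day 9.

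Collagen and matrix genes rose, 10 of 31 tested with 0 falls: Col3a1, Col5a2, Col6a1, Col6a2, Col9a1, Dcn, Postn, Tnc, Fbn1 and Lox. Col6a1, a chain of microfibrillar collagen, had log2 levels of -1.58 and -1.75 on day 7 and 0.22 and 0.72 on day 9. Its replicates were within 0.5 on each day and it rose by 2.13 ± 0.20 or 4.38-fold (adjusted p = 0.00559, called in 8 of 8 fits). Col9a1, a collagen of cartilage, went from -3.87 and -4.11 to -1.26 and -0.75, by 2.99 ± 0.21 (adjusted p = 0.00485). Col6a2 rose by 1.82 ± 0.25 (adjusted p = 0.0136), the proteoglycan Dcn by 2.14 ± 0.30 (adjusted p = 0.0142) and Postn, a matricellular protein, by 2.13 ± 0.30 (adjusted p = 0.0147). Col8a2, outside the list and among the largest rises of the comparison, stood at -2.24 and -2.27 on day 7 and 1.73 and 2.28 on day 9, a rise of 4.26 ± 0.23 or 19.2-fold (adjusted p = 0.00268) called in 8 of 8 fits.

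Fibroblast, mural and mesenchymal genes gave 7 rises and 1 fall among 27. The contractile genes Tagln, Myl9 and Acta2 rose, Tagln by 1.87 ± 0.20 (adjusted p = 0.00727) and Myl9 by 1.02 ± 0.19 (adjusted p = 0.0278). Vcam1, an adhesion receptor, rose by 1.92 ± 0.35 (adjusted p = 0.0261) and Ccn2, a secreted matrix protein, by 0.70 ± 0.15 (adjusted p = 0.0379). The mesodermal homeobox genes parted: Meox1 went from -2.39 and -2.52 to -3.85 and -4.13, a change of -1.53 ± 0.17 (adjusted p = 0.00742), and Meox2 rose by 1.20 ± 0.20 (adjusted p = 0.0217). The summed level of this list was 91.3 and 84 on day 7 and 164 and 136 on day 9, and that of the collagen and matrix list was 366 and 444 on day 7 and 480 and 604 on day 9. Over the matrix and mesenchymal lists the 17 rises numbered 10 and 2 when replicates 1 and 2 of control day 7 were left out in turn, and 10 and 6 for those of control day 9. The number was 16 with either knockout array of day 7 left out and 12 with either of day 9.

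Lists of other cell types gave 4 rises among 100 tested genes, under the 6.03% of all genes with a symbol, and 8 falls, against 3.66%. Neural crest and sensory neuron genes gave 4 falls and 0 rises among 18, and the members that fell included Isl2 (above), Phox2a, an autonomic and cranial motor factor, with -0.90 ± 0.21 (adjusted p = 0.0499), and Th, the enzyme of catecholamine synthesis, which went from 1.20 and 1.96 to -0.77 and -0.44, a change of -2.18 ± 0.27 (adjusted p = 0.00955) called in 8 of 8 fits. Muscle genes gave 2 rises and 2 falls among 14: Acta1 with 1.11 ± 0.18 (adjusted p = 0.0186) and Myh7 with 0.99 ± 0.19 (adjusted p = 0.0298), and Tnnt1 with -0.88 ± 0.16 (adjusted p = 0.028) and Tnnc1 with -0.62 ± 0.14 (adjusted p = 0.0494). Of 19 endoderm genes tested, Lrp2 rose by 1.10 ± 0.15 (adjusted p = 0.0145), as did Foxa2, which is also a floor plate gene. Surface epithelium genes gave 1 fall among 19, the keratin Krt5 with -0.94 ± 0.16 (adjusted p = 0.0231), and trophoblast genes 1 fall among 23, Plac1 with -1.62 ± 0.28 (adjusted p = 0.0227). Over the lists of other cell types the 4 rises numbered 4 and 0 when replicates 1 and 2 of control day 7 were left out in turn, and 6 and 0 for those of control day 9. The number was 4 with either knockout array of day 7 left out and 3 with either of day 9. The 8 falls numbered 3 and 1 when replicates 1 and 2 of control day 7 were left out in turn, and 5 and 3 for those of control day 9. The number was 7 with either knockout array of day 7 left out and 3 with either of day 9.

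Pluripotency genes, a list of genes of the embryonic stem cell state, gave 4 falls and 1 rise among 30 tested. The genes that fell were Lin28a, Lin28b, Trim71 and Sall4. Lin28a, which blocks maturation of let-7 microRNAs, had log2 levels of 2.51 and 2.64 on day 7 and 1.25 and 1.25 on day 9 and changed by -1.32 ± 0.17 (adjusted p = 0.0122), and its paralog Lin28b went from 3.05 and 2.76 to 1.55 and 1.23, by -1.51 ± 0.17 (adjusted p = 0.00775, called in 8 of 8 fits). Trim71, a let-7 target, changed by -1.64 ± 0.28 (adjusted p = 0.0232) and Sall4 by -1.15 ± 0.16 (adjusted p = 0.014), while Klf5 rose by 1.21 ± 0.17 (adjusted p = 0.0156). In the list of RNA-binding and chromatin genes that change as neurons mature, 3 of 34 rose and 8 fell. Igf2bp1, a further let-7 target, changed by -0.99 ± 0.17 (adjusted p = 0.0217) and Ptbp2, the splicing repressor of young neurons, by -1.12 ± 0.13 (adjusted p = 0.00914). Hmga2, Ezh2, Elavl2 and Srrm4 also fell, and Nfix, Bcl11a and Chd5, a neuronal chromatin remodeller with 2.28 ± 0.39 (adjusted p = 0.0219), rose.

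Germline genes gave 3 falls and 1 rise among 18. Dazl, an RNA-binding protein of germ cells, was lower by at least 2.51-fold (adjusted p = 0.03), Tuba3b, which has a near-identical copy in Tuba3a, changed by -1.23 ± 0.26 (adjusted p = 0.0385), Tex101 by -1.78 ± 0.39 (adjusted p = 0.0426) with 1 of 2 day 9 arrays below background, and Dmrtb1 rose by 1.18 ± 0.17 (adjusted p = 0.0162).

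Of 40 genes of the cell cycle and mitosis 1 fell, E2f2, with -0.66 ± 0.14 (adjusted p = 0.0385), and the median was -0.14, close to that of all genes. On both day 9 arrays, 18 of the 40 were lower and 1 higher than on either day 7 array. Of 35 DNA replication genes 3 fell, Rfc4, Orc1 and Orc6, with -0.63 ± 0.13 (adjusted p = 0.0358), -0.73 ± 0.16 (adjusted p = 0.043) and -0.53 ± 0.12 (adjusted p = 0.049). The median was -0.47, and 30 were lower and 1 higher on both day 9 arrays than on either day 7 array. The share of all genes that separated so was not computed, and the other 32 did not pass the test. Mki67 had a change of -0.16 ± 0.14 (adjusted p = 0.504). Among 26 cell cycle inhibitors and p53 targets 1 fell, Gadd45g with -0.88 ± 0.16 (adjusted p = 0.0278), and among 24 genes of apoptosis and axon degeneration 1 fell, the death-promoting Bcl2l11 with -0.74 ± 0.13 (adjusted p = 0.0245). Over the lists of early identity, germline, division, death and maturation, the 19 falls numbered 5 and 1 when replicates 1 and 2 of control day 7 were left out in turn, and 10 and 1 for those of control day 9. The number was 12 with either knockout array of day 7 left out and 12 with either of day 9. The 5 rises numbered 3 and 0 when replicates 1 and 2 of control day 7 were left out in turn, and 3 and 0 for those of control day 9. The number was 5 with either knockout array of day 7 left out and 4 with either of day 9.

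Imprinted genes, expressed from 1 parental copy, gave 3 rises and 3 falls among 34 tested. Rasgrf1, a paternally expressed activator of Ras, had log2 levels of -4.78 and -4.97 on day 7 and -2.39 and -2.05 on day 9, with 1 of 2 day 7 arrays below background, and rose by 2.66 ± 0.23 (adjusted p = 0.00559, called in 8 of 8 fits). Usp29 and Peg3, neighbours in 1 imprinted domain, rose by 1.37 ± 0.21 (adjusted p = 0.0169) and 1.28 ± 0.28 (adjusted p = 0.0421). Ddc, which makes dopamine and serotonin, changed by -1.54 ± 0.21 (adjusted p = 0.014), Mest by -0.84 ± 0.18 (adjusted p = 0.0387) and the noncoding gene Mirg by -0.96 ± 0.20 (adjusted p = 0.0395). The 3 rises numbered 2 and 1 when replicates 1 and 2 of control day 7 were left out in turn, and 1 and 1 for those of control day 9. The number was 3 with either knockout array of day 7 left out and 2 with either of day 9. The 3 falls numbered 1 and 0 when replicates 1 and 2 of control day 7 were left out in turn, and 1 and 0 for those of control day 9. The number was 1 with either knockout array of day 7 left out and 2 with either of day 9.

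Metabolic and stress lists gave 4 rises and 0 falls among 180 tested genes. Among 36 oxidative phosphorylation genes, 37 ribosomal protein genes and 30 cholesterol synthesis genes limma called 0, and the medians were -0.10, -0.12 and -0.17. Of 29 hypoxia and glycolysis genes 2 rose, the neuronal enolase Eno2 with 1.47 ± 0.21 (adjusted p = 0.0155) and the neuronal glucose transporter Slc2a3 with 0.81 ± 0.17 (adjusted p = 0.0357). Of 32 genes of the unfolded protein and amino acid responses Atf5 rose, with 0.60 ± 0.14 (adjusted p = 0.049), and of 16 heat shock genes Cryab, a small chaperone, with 1.20 ± 0.21 (adjusted p = 0.0231). Of these 4 rises, 0 were called without replicate 1 or 2 of control day 7 or without replicate 2 of control day 9.

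Outside the lists, the largest changes among genes above background on all 4 control arrays fell to genes of several kinds. Of those that rose, Cavin2, a coat protein of caveolae, stood at -0.88 and -1.32 on day 7 and 2.52 and 3.004 on day 9, a rise of 3.87 ± 0.38 (adjusted p = 0.00646, called in 7 of 8 fits). Cp, the copper-carrying ferroxidase ceruloplasmin, stood at -3.21 and -3.86 on day 7 and 0.24 and 0.33 on day 9, a rise of 3.82 ± 0.34 or 14.2-fold (adjusted p = 0.00559, called in 8 of 8 fits). Lgi3, a secreted neuronal protein, rose by 3.81 ± 0.42 (adjusted p = 0.00782, called in 7 of 8 fits). Of those that fell, Cntn2, an adhesion protein of growing axons that newborn motor neurons carry, went from -1.67 and -0.75 to -4.92 and -4.28, a change of -3.39 ± 0.40 (adjusted p = 0.00906, called in 7 of 8 fits). The transcription factor gene Sp8 changed by -2.75 ± 0.31 (adjusted p = 0.00795), the claudin gene Cldn3 by -3.19 ± 0.28 (adjusted p = 0.00559), Spp2 by -3.38 ± 0.26 (adjusted p = 0.00485) and Fndc3c1 by -2.63 ± 0.20 (adjusted p = 0.00485), and each of these 4 was called in 8 of 8 fits. C1ql1, a secreted synaptic protein, changed by -3.01 ± 0.50 (adjusted p = 0.0209), the desmosomal cadherin gene Dsg1c by -2.74 ± 0.54 (adjusted p = 0.0325) and the co-chaperone gene Dnajb8 by -2.68 ± 0.47 (adjusted p = 0.0248), in 5, 1 and 4 of 8 fits.

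Some genes were measured on 1 day alone. Not well above background on either day 7 array, Ccdc3 was at least 15.6-fold higher on day 9 (adjusted p = 0.0035), and Ecrg4, a secreted peptide precursor, at least 12.1-fold (adjusted p = 0.00581). Slc6a4, the serotonin transporter, was higher by at least 9.16-fold (adjusted p = 0.0266) and Galr1, a galanin receptor, by at least 8.14-fold (adjusted p = 0.00541). These 4 were called in 8, 8, 5 and 8 of 8 fits. Not well above background on either day 9 array, the hexokinase gene Hk3 was lower by at least 5.04-fold (adjusted p = 0.0335) and Bcl2l14 at least 4.25-fold (adjusted p = 0.0186). The defensin gene Defb36 was lower by at least 2.79-fold (adjusted p = 0.0251) and Bco1, which cleaves carotene to retinal, by at least 2.53-fold (adjusted p = 0.00268). These 4 were called in 3, 6, 4 and 8 of 8 fits.

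Probes named only by a genome position, most of them for long noncoding transcripts, were a further 2865 of the tested features. Of these 152 were called (5.31%), 43 higher (1.5%) and 109 lower (3.8%). On the array's build, mm9, the largest rise among those above background on all 4 control arrays was at chr11:119254413-119296960 on the + strand, with a change of 3.00 ± 0.47 (adjusted p = 0.0177), and the next was at chr2:33500594-33501874 on the + strand, with 2.52 ± 0.27 (adjusted p = 0.00727). The largest falls were at chr5:110502650-110522475 on the + strand, with -2.92 ± 0.55 (adjusted p = 0.0289), and at chr1:167515313-167516122 on the + strand, with -2.54 ± 0.57 (adjusted p = 0.0458). The 2 rises were called in 6 and 7 of 8 leave-one-out fits and the 2 falls in 3 and 1. The 152 calls numbered 70 and 6 without replicates 1 and 2 of control day 7, and 136 and 8 without those of control day 9. They numbered 97 without either knockout array of day 7 and 73 without either of day 9. Genes at these positions were not looked up, since no annotation of that build was used here.

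The change over the same days in knockout cultures was compared with that in control cultures. Knockout cultures gave 2118 calls (8.93%), 1049 higher (4.42%) and 1069 lower (4.51%). Of the 1070 genes that rose in control cultures, 1032 had a positive change in knockout cultures and 655 were also called there, and of the 889 that fell, 862 had a negative change and 458 were also called. Across genes the changes had a Pearson r of 0.74, given as a description since genes are not independent replicates. The pairs of days share no array, but both changes were tested in the same fit with a shared error estimate for each gene. A gene with a small error is thus called more readily in both, and the calls are not independent. The genes tested were also kept by their signal on control arrays alone. The difference between the control and knockout changes was called for 0 genes by limma, at a smallest adjusted p of 0.19 and with 1425 genes at an unadjusted p under 0.05, so no change above is shown to differ between genotypes. For 1 gene the difference was called without knockout day 7 replicate 1, and likewise for 1 gene without either knockout array of day 9.

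Among the smallest p for that difference were the Ifna genes. Ifna5 changed by 0.99 ± 0.20 in control and -1.71 ± 0.20 in knockout cultures (adjusted p of the difference 0.3), and Ifnab by 0.88 ± 0.16 and -1.35 ± 0.16 (adjusted p = 0.3). Ifna4, Ifna13, Ifna16 and Ifna2 had the same opposite signs, at adjusted p = 0.3, 0.3, 0.337 and 0.337, and of these Ifna4, Ifna13 and Ifna16 were below background on 1 or both of the control day 7 arrays. Rasgrf1 had a change of -0.20 ± 0.23 in knockout cultures (adjusted p of the difference 0.3). Gpr17, a receptor of oligodendrocyte precursors, had changes of -0.81 ± 0.23 in control and 1.62 ± 0.23 in knockout cultures (adjusted p = 0.337). Those of St8sia5, a sialyltransferase, were 0.18 ± 0.14 and 1.66 ± 0.14 (adjusted p = 0.337), and those of Cd69 -0.94 ± 0.16 and -2.77 ± 0.16 (adjusted p = 0.33) with 1 of 2 control day 9 arrays below background.

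For the interferon-stimulated genes the median change was 3.05 in control and 1.32 in knockout cultures, where 3 of 42 were called higher. The difference had an unadjusted p under 0.05 for 22 of the 42 and a smallest adjusted p of 0.71, so it was not called for any of them. Their summed level in knockout cultures was 353 and 318 on day 7 and 921 and 805 on day 9. On day 9, replicate 2 of the control, at 789, was near these, and replicate 1, at 322, was near the knockout level of day 7. The motor neuron identity list had a median of -0.89 in knockout cultures with 6 falls, the floor plate list 1.55 with 10 rises and 1 fall, and the motile cilium list 1.93 with 11 rises.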

How the data were processed

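RNA of 8 samples was hybridised to Agilent mouse arrays in 1 colour (Cy3), 0.5 ug RNA per sample and an integrity number above 9, per the labels' protocols. All 8 arrays were on 1 slide. The submitters' processing notes name Agilent Feature Extraction 10.5.1. Per the file headers, the deposited processed signal is an intensity from which background and a spatial trend were removed on each array by itself. A second deposited table gives log2 values; each of its columns has a median of 5.80 and a Pearson r of 0.998 or more with the log2 intensity of its own array. Its baseline offset is not given in the sources used here, and it served as an alternative.

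Control spots (3671 of 62976) and outlier spots were dropped; saturated spots numbered 0. Replicate spots were averaged per probe, and each array's 75th percentile was subtracted on the log2 scale. Probes well above background on both arrays of control day 7 or control day 9 were kept (31666), and a gene with several was represented by its brightest. RefSeq accessions carried by the probes gave symbols through a mouse gene table (GRCm38.p6) for 26300 of 55681 probes. Of 23714 genes tested, 14653 had a symbol and 2865 a position. Kept probes of 4 genes were called in opposite directions (Itsn1, Plekha6, Rasgrp2 and Tnrc18), none of them discussed. Hb9 and Litchi were not analysed here, and some called genes are not reported here.

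All 8 arrays entered 1 limma 3.58.1 fit of 4 group means (R 4.3.3, lmFit and eBayes, two-sided, 4 residual and 2.67 prior degrees of freedom). The code was run on simulated data with planted changes and independent noise. Those data held no shift common to an array, so the run does not bear on the differences between replicates. The 11 missing values among tested genes were dropped from their fits. Named were, by rule, up to 15 largest rises and 15 falls above background on all control arrays and alike in both replicates, up to 5 bounds per direction, the 6 members of smallest p of each list, 10 genes of smallest p for the difference between genotypes, 10 of the largest day 9 gap, and markers of the tissue. The comparison, lists and genes were chosen with earlier results of these data known. Alternatives were quantile, median and normexp normalization (offset 50), the authors' table, other filters, probes and fits, and each array left out; normexp used the median signal, since the mean signal was not analysed here. Tables and figures were made with Python 3.11.15, pandas 2.3.3, numpy 2.4.6 and matplotlib 3.10.9.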

Additional observations from a re-analysis of the deposited data

How the results depend on the processing

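The 1959 control calls became 773 with normexp, 74 with no filter on dim probes and 387 with the 4 control arrays alone, and ranged from 121 to 1460 with 1 array left out. Calls among list genes went from 237 to 134, 11 and 62, and from 18 to 203. Probes named by position went from 152 to 38, 3 and 17, and from 6 to 136. The 2118 knockout calls became 971 with normexp and 477 with no filter, and ranged from 526 to 2109. The difference between genotypes gave 0 calls under each setting but 0 to 1 with 1 array left out. Quantile normalization (2063), median centring (1957), the authors' table (2061), a stricter filter (1849), the mean of a gene's probes (2050) and an intensity trend (2744) stayed within 1.5 times. With fewer arrays the residual degrees of freedom fall from 4; the other causes were not tested. With the replicate number as a block, 2365 control and 2616 knockout calls were made; deviations of same-numbered arrays correlated from -0.28 to 0.50 (0.23 for control), and since not every correlation was over 0.1 the numbers were not taken as pairs. The replicates did share some features: replicate 1 was the brighter array in all 4 groups, and the ribosomal protein genes had the higher median level in replicate 2 of all 4 groups. Map2, not called, turned to -0.006 with normexp, -0.092 with the mean of its probes, -0.067 without control day 7 replicate 1 and -0.085 without control day 9 replicate 2, and Sox2 to -0.013 without the last; with 1 array left out they ranged from -0.085 to 0.113 and from -0.013 to 0.359. No named gene that was called changed sign in any setting run. Genes near background have the least precise values, and the number of arrays limits the rest.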

Other observations

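The genes whose control day 9 arrays differed most included placental genes as well as interferon-stimulated ones. Prl3b1, a placental lactogen, had log2 levels of -1.54 and -1.07 on day 7 and -2.02 and 1.58 on day 9, and Prl2b1, of the same prolactin family, of -1.94 and -1.05 on day 7 and -3.76 and -0.35 on day 9. Ctsq, a placental cathepsin, stood at -4.78 and -5.90 on day 7 and -4.68 and -1.32 on day 9, with 1 of 2 day 7 arrays below background. Replicate 2 was the higher day 9 array in each of them, and none was called. Both families hold near-identical copies that a probe may not separate. Neurod4, a proneural gene, stood at -7.52 and -3.90 on day 9, Spdye4b at -7.08 and -3.34 and Ccr10 at -7.45 and -3.71, with replicate 1 below background, and Gm11567 at -3.66 and -7.23, with replicate 2 below background.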
